A study of Mus musculus with 2 samples.

Results

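The genes described here synthesize, bind, degrade or respond to retinoic acid, and they were compared between 2 kinds of primed pluripotent mouse cells. They are 9 genes (Stra6, Aldh1a2, Dhrs3, Crabp1, Crabp2, Cyp26a1, Rara, Rarb and Rarg), taken by an exact match of the gene name in the array files. They were measured by 12 of 55681 probes, among 34650 gene names on the array. RNA was hybridized to 1 one-colour microarray for each group. Both groups derived from E14Tg2A, an embryonic stem (ES) cell line of the 129/Ola strain with no engineered allele given, grown in 10% serum with LIF, the cytokine that holds mouse ES cells undifferentiated. EpiSC, or epiblast stem cells, were ES cells placed straight into medium with FGF2 at 12 ng/mL and Activin A at 20 ng/mL. ELA-EpiSC were cells dissociated from Epiblast-Like Aggregates (ELA), the clusters that ES cells form without serum and LIF, and kept in the same concentrations of both factors. The differentiation medium of both groups contained N2 and B27 supplements, the latter free of vitamin A. Each RNA was a pool of 3 experiments with 1 cell line, so that a difference has no replicate check and no p-value could be computed. Groups follow the titles and descriptions, although the source labels of both samples speak of cells before differentiation, as an Argonaute immunoprecipitation for EpiSC and total RNA for ELA-EpiSC.

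Retinoic acid is made from vitamin A in successive oxidations: retinol is taken up through the receptor STRA6, converted reversibly to retinaldehyde, and oxidized irreversibly to retinoic acid by aldehyde dehydrogenases such as ALDH1A2. Binding proteins (CRABP1 and CRABP2) carry the acid in the cytoplasm, CYP26 hydroxylases inactivate it, and nuclear receptors (RARA, RARB and RARG), paired with a retinoid X receptor, switch target genes through paired half-sites in DNA. Rarb and Cyp26a1 are themselves textbook targets of the acid, which patterns the posterior embryo and drives pluripotent cells out of pluripotency.

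The letters through which retinoic acid receptors are known to bind were searched in RefSeq promoter windows of assembly GRCm38.p6, which run from 250 bases before to 50 bases after each gene's start. A window was given for 8 of the 9 genes, with Crabp2 the gene left without one, and the 8 genes had 17 windows. The pattern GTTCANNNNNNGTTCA, a direct repeat of the half-site with 6 bases between the letters searched (called DR5, since the known half-site is a base longer and leaves 5), was looked for on both strands. It occurred in 25 of 32851 windows, or 0.0761%. The genes described here with this pattern were Rarb and Cyp26a1. The stretch of 250 bases before their starts is shown because both genes are known targets of the acid and were measured on both arrays. The letters are in the direction of transcription, with the element in capitals.
Rarb, chr14:16575477-16575726, minus strand: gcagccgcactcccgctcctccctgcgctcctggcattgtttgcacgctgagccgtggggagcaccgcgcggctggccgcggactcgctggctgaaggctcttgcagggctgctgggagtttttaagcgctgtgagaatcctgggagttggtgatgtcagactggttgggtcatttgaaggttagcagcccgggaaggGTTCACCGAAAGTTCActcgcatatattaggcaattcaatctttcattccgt
Cyp26a1, chr19:37697558-37697807, plus strand: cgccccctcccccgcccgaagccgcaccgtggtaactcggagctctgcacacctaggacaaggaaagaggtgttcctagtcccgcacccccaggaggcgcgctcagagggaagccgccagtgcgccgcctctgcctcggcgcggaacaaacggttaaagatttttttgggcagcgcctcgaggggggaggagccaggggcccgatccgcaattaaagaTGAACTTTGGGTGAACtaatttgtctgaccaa
In Rarb the element reads GTTCAccgaaaGTTCA on the strand of the gene, from 52 to 37 bases before the start. In Cyp26a1 it reads GTTCAcccaaaGTTCA on the opposite strand, from 32 to 17 bases before the start. With GTTCA or GGTCA accepted at either half-site, 81 windows (0.247%) held a DR5 pattern, and the members among them were again Rarb and Cyp26a1. The same half-sites with 3 bases between them (DR2) occurred in 0.399% of windows and with 2 bases between them (DR1) in 0.402%, in 0 of the 17 windows of these genes in either case. A match describes the letters of the reference genome in the window and is not a measurement of binding.

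Levels are given as log2 normalized intensity, and differences as log2 ELA-EpiSC minus EpiSC. A probe counted as detected where it was well above its local background, and all 9 genes were detected on both arrays, with 0 spots flagged or saturated among their probes. Over the whole array 65.8% of probes were detected in EpiSC and 65.0% in ELA-EpiSC. The median spot signal was 71.7 and 79.1 intensity units over a median background of 26 and 25 units. The only error that could be measured was that of 312 detected probes printed 10 times, whose spots gave the difference between arrays an SD of 0.10 (root mean square). It covers neither labelling nor culture. A gene was counted as past 1 where its difference was at least 1 in size (2-fold) and its mean level over both arrays at least 7.5. Of 16649 genes with that level, 756 (4.54%) were past 1 with the higher level in ELA-EpiSC and 742 (4.46%) with the higher level in EpiSC, and the central 95% of differences ran from -1.32 to 1.37. The split of these calls, 50.5% of them higher in ELA-EpiSC, rests on quantile normalization: it became 68.3% with both arrays set to the same median, which moved the median of all genes by 0.15, and 89.1% with the spike-in probes set equal, which moved it by 0.54. On the quantile-normalized scale the 8 detected spike-in probes were all lower on the ELA-EpiSC array, by 0.54 on average. Their differences ran from -0.86 to -0.26 on that scale and from -0.57 to -0.29 before quantile normalization. The cause was not tested.

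The retinoic acid genes did not share a single direction. The receptor Rarb was 9.69-fold higher in EpiSC, and the vitamin A uptake receptor Stra6 (2.40-fold) and the binding protein Crabp2 (2.03-fold) were also higher in EpiSC. Dhrs3, the enzyme that returns retinaldehyde to retinol, was 3.04-fold higher in ELA-EpiSC. The hydroxylase Cyp26a1 and the receptors Rara and Rarg differed by less than 1.3-fold. Of the 8 genes with a mean level of at least 7.5, 1 was past 1 with the higher level in ELA-EpiSC, against 4.54% of all such genes, and 3 with the higher level in EpiSC, against 4.46%. Over all 9 genes 3 were higher and 6 lower in ELA-EpiSC, with a median difference of -0.24 against 0.00 over all genes. With the spike-in probes set equal 5 were higher and 4 lower, the median was 0.29 against 0.54 over all genes, and Rarb alone was past 1 with the higher level in EpiSC. In RNA from whole cultures, fewer cells that carry a transcript and less of the transcript per cell cannot be told apart.

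**Figure D1:**
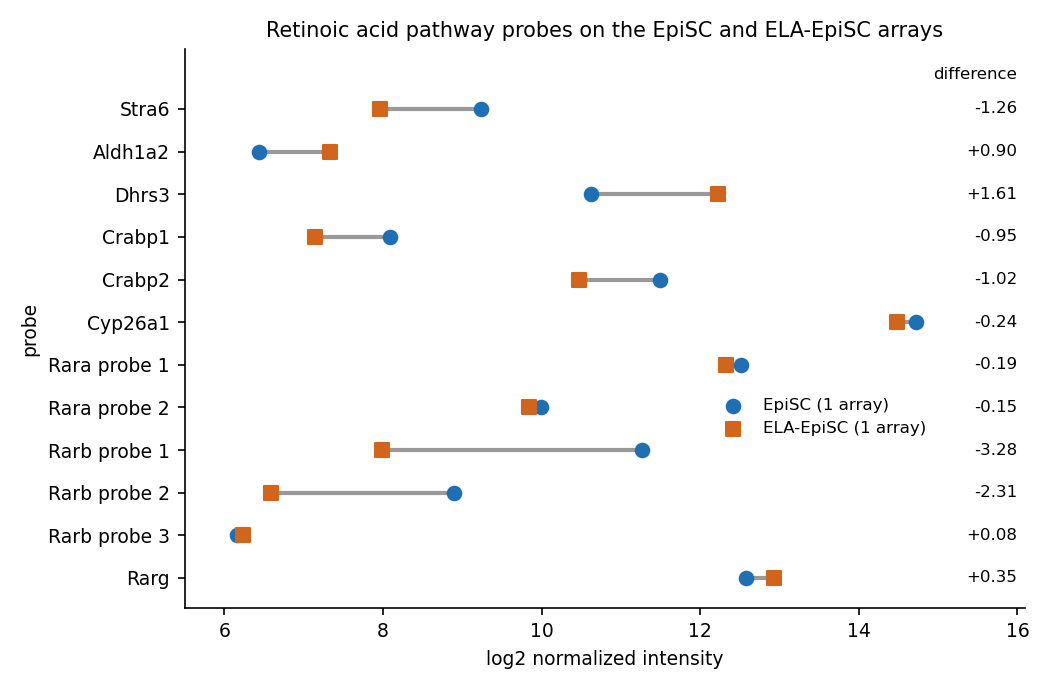
Log2 normalized intensity (horizontal axis) of the 12 probes of the 9 retinoic acid genes (vertical axis, ordered by role) on the single EpiSC array (circles) and the single ELA-EpiSC array (squares), with the difference printed at the right. The longest lines are those of Rarb probes 1 and 2, at -3.28 and -2.31, and the longest in the other direction is that of Dhrs3, at 1.61.

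Uptake of vitamin A was represented by Stra6, the membrane receptor for retinol bound to its serum carrier. Its probe (mm9 chr9:58001701-58001760) had a mean signal of 516 units in EpiSC and 236 in ELA-EpiSC, over backgrounds of 29 and 24. The log2 level was 9.23 in EpiSC and 7.97 in ELA-EpiSC, and the difference -1.26. The signal was thus well clear of background on both arrays. The difference was 12.4 times the SD over spots, an error that covers neither labelling nor culture. With the spike-in probes set equal the difference shrank to -0.73 and Stra6 was no longer past 1, whereas its difference was past 1 under the other ways of computing the level.

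The other genes of retinol uptake, storage and transport were 14, of which 13 were detected and 8 had a mean level of at least 7.5. None was past 1 with the higher level in ELA-EpiSC, against 4.54% of all genes with that level. With the higher level in EpiSC 2 were past 1, Rbp4 and Ttr, against 4.46%. The median of the list was -0.05, or 0.49 with the spike-in probes set equal. Rbp4, the serum carrier of retinol and ligand of STRA6, had a level of 13.68 in EpiSC and 10.45 in ELA-EpiSC, 9.39-fold apart. Ttr, which holds the RBP4 complex in plasma, was detected on the EpiSC array only. The carrier, its plasma partner and the receptor for the complex were therefore all lower in ELA-EpiSC. The cellular carrier Fabp5, which also binds retinoic acid, differed by 0.01, from 15.96 to 15.97, and is named here after its values were seen. Lrat, the enzyme that esterifies retinol for storage, gave no signal well above background.

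Rbp4 and Ttr are also made in quantity by visceral endoderm, the extraembryonic layer that surrounds the epiblast, and markers of that tissue moved in the same direction. Of 10 visceral endoderm markers, all detected on at least 1 array, 8 were lower in ELA-EpiSC, with a median of -0.75. A mean level of at least 7.5 was reached by 8 markers. Of these, 3 were past 1 with the higher level in EpiSC, against 4.46% of all such genes. With the spike-in probes set equal 6 of the 10 were lower, 3 were again past 1, and the median was -0.21. The regulator Hnf4a went from 12.79 to 7.67, Amn (a subunit of the protein uptake receptor of that tissue) from 10.00 to 7.25, and Gata4 from 12.11 to 9.72. The summed level of the list, as log2, was 15.90 in EpiSC and 15.07 in ELA-EpiSC. Not every marker followed: Apoa2, an apolipoprotein, was at 11.35 and 11.28, Afp, a defining secreted product, lay near background at 6.26 and 6.47, and Cubn, the partner of Amn, was at 7.84 and 7.94. Apoa1 was detected in EpiSC only. Whether such cells had a part in the differences of Rbp4, Ttr, Stra6 or Rarb was not tested.

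The enzymes of the pathway were represented by Aldh1a2, which makes the acid, and Dhrs3, which works against its synthesis, and both were higher in ELA-EpiSC. Aldh1a2 (mm9 chr9:71143931-71143990), the main embryonic enzyme of the irreversible step, gave 51.7 units over a background of 25 in EpiSC and 141 over 26.5 in ELA-EpiSC. Its log2 level was 6.44 in EpiSC and 7.34 in ELA-EpiSC, higher by 0.90 or 1.86-fold. Aldh1a2 was dim on both arrays, with a mean level of 6.89 that lies under the minimum for a call. The difference was positive under each of 12 other ways of computing it, with a size from 0.69 with 75th-percentile scaling after normexp to 1.95 with the processed signal at that percentile.

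Dhrs3 (mm9 chr4:144517485-144517544) encodes a reductase that converts retinaldehyde back to retinol and so draws substrate away from retinoic acid. It is known as a gene that the acid induces. Its probe gave 1384 units in EpiSC and 5267 in ELA-EpiSC over backgrounds of 27 and 25. The array software's own error estimate for its processed signal was 159 on 1586 units in EpiSC and 627 on 6266 units in ELA-EpiSC. The log2 level was 10.62 in EpiSC and 12.23 in ELA-EpiSC, or 1.61 apart, and the 12 alternatives lay between 1.61 and 2.14. Both values were far above background, and 279 of 16649 genes (1.68%) had a higher difference.

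Among the 22 other enzymes of retinol and retinaldehyde, 16 were detected and 12 had a mean level of at least 7.5, with a median of -0.17 that became 0.06 with median scaling and 0.37 with the spike-in probes set equal. Of the 16 detected, 10 were lower and 6 higher in ELA-EpiSC, or 2 lower and 14 higher with the spike-in probes set equal. In this list 1 gene was past 1 in each direction. Of all genes with a mean of at least 7.5, 4.54% were past 1 toward ELA-EpiSC and 4.46% toward EpiSC. Rdh10, the dehydrogenase that makes most of the retinaldehyde of the early embryo and is known to act in a complex with DHRS3, went from 7.90 in EpiSC to 9.73 in ELA-EpiSC, higher by 1.83 (3.56-fold). Rdh10 and Dhrs3, an oxidizing and a reducing enzyme of the retinol step, were thus both higher in ELA-EpiSC. Akr1c19, an aldo-keto reductase, went the other way, from 10.96 to 6.91, a difference of -4.05 (16.5-fold). The remaining aldehyde dehydrogenases that make the acid, Aldh1a1 and Aldh1a3, were dim, from 6.87 to 7.17 and from 6.56 to 7.21, and are named after their values were seen. The list holds 6 enzymes with no probe well above background (Rdh7, Rdh16, Sdr16c5, Adh1, Adh4 and Adh7).

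The binding proteins Crabp1 and Crabp2 were both lower in ELA-EpiSC and lay on either side of the threshold. Crabp1 (mm9 chr9:54616192-54616251), which holds retinoic acid in the cytoplasm, gave 223 units in EpiSC and 117 in ELA-EpiSC over backgrounds of 29 and 26. Its log2 level was 8.09 in EpiSC and 7.15 in ELA-EpiSC, with -0.95 between them. It ran from -1.44 to -0.41 over the alternatives and exceeded 1 in size under 6 of the 12. Crabp2 (mm9 chr3:87757207-87757266), which delivers the acid to its receptors in the nucleus, gave 2573 units in EpiSC and 1539 in ELA-EpiSC over backgrounds of 25 and 22. Its log2 level was 11.49 in EpiSC and 10.47 in ELA-EpiSC, with -1.02 between them.

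A probe that the array names after an interval just beyond Crabp2 (chr3:87757295-87774970_F) has the same 60 bases as the Crabp2 probe. It acts as a repeat of the measurement, and the RNA of the interval and that of Crabp2 cannot be told apart by either. This copy read 11.78 in EpiSC and 10.88 in ELA-EpiSC, or -0.90. Identical letters printed at different places on the slide therefore fell inside and outside the threshold, with the same direction. Crabp2 was lower in ELA-EpiSC under all 12 alternatives, from -1.05 to -0.48, and past 1 under 8 of them. Compared position by position, without gaps or shifts, the other member probes shared at most 55% of their bases with a probe of any other gene. An overlap at a shifted position was not searched for.

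Breakdown of retinoic acid was represented by Cyp26a1 (mm9 chr19:37775566-37775625), the hydroxylase that clears the acid from the early embryo. It gave 26495 units in EpiSC and 23892 in ELA-EpiSC, over backgrounds of 29 and 25. The log2 level was 14.72 in EpiSC and 14.48 in ELA-EpiSC, and the gap of -0.24 was 2.40 times the SD over spots. Both arrays were thus close, at a bright signal with 0 saturated spots. The sign was positive, at 0.29, with the spike-in probes set equal. Of the 3 other hydroxylases listed, 1 had a mean level of at least 7.5 and 0 were past 1. Over all genes with that level, 4.54% were past 1 toward ELA-EpiSC and 4.46% toward EpiSC. Cyp2s1, the brightest of them, went from 11.25 to 10.65, Cyp26b1 lay near background at 6.31 and 6.35, and Cyp26c1 gave no signal well above background.

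The 3 receptors differed from each other in how their levels moved. Rara, the broadly expressed receptor, was measured by 2 probes on chromosome 11 (mm9 chr11:98836197-98836256 and chr11:98835350-98835409). The brighter probe read 12.51 in EpiSC and 12.32 in ELA-EpiSC, and the dimmer one 10.00 and 9.85, so that the differences were -0.19 and -0.15, within 1.9 times the SD over spots. The sign of Rara turned with median scaling (0.029) and with the spike-in probes set equal (0.35). Rarg (mm9 chr15:102065371-102065430), a receptor of early embryonic tissue and skin, gave 5551 units in EpiSC and 8454 in ELA-EpiSC. Its log2 level was 12.58 in EpiSC and 12.93 in ELA-EpiSC, and its difference of 0.35 stayed positive under the 12 alternatives, between 0.31 and 0.89.

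Rarb was the member with the largest difference. Its brightest probe (mm9 chr14:17263367-17263426, minus strand) gave 2202 units in EpiSC and 241 in ELA-EpiSC over backgrounds of 30 and 26. The array software's error estimate was 192 on a processed signal of 1920 units in EpiSC and 18.5 on 184 units in ELA-EpiSC. The log2 level was 11.26 in EpiSC and 7.99 in ELA-EpiSC, which puts the difference at -3.28. Rarb thus remained above background in ELA-EpiSC at a far lower level, and 47 of 16649 genes (0.282%) had a lower difference.

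A second Rarb probe (mm9 chr14:17264648-17264707) lies 1222 bases away in the genome and is assigned to the same RefSeq transcript. This probe gave 402 units in EpiSC and 68.5 in ELA-EpiSC over backgrounds of 26 and 27. It read 8.90 and 6.59, a difference of -2.31 (4.95-fold). Another probe (mm9 chr14:17651424-17651483) lies 387 kb from these and is assigned to another RefSeq transcript of the gene. It gave 35.9 units over a background of 23 in EpiSC, where it was not well above background, and 41.7 over 23 in ELA-EpiSC. Its levels of 6.16 and 6.24 differed by 0.08, less than the SD over spots. Both probes assigned to the first transcript therefore shared the direction, and the distant probe carried almost no signal on either array. Probes were not placed in exons, so the signal was not divided between transcripts. The mean of the 3 probes gave a difference of -1.83, and the other alternatives lay between -3.70 and -2.74.

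Rarb and Cyp26a1 carry the DR5 letters shown above and behaved unlike each other, at -3.28 and -0.24. The pattern is found in the windows of 24 genes, of which 10 were detected and 4 had a mean level of at least 7.5. Of these 4, 1 was past 1 (Rarb, higher in EpiSC), against 4.46% of all genes with that level. The others were Cyp26a1, Blvrb (12.96 in EpiSC and 12.03 in ELA-EpiSC, -0.92) and Lcorl (8.48 and 8.10, -0.37). All 4 were lower in ELA-EpiSC with quantile normalization, under which the median over all genes was 0.00. Setting the spike-in probes equal adds 0.54 to every ELA-EpiSC level. That is more than the size of the differences of Cyp26a1 and Lcorl, so that both turn positive.

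**Figure D2:**
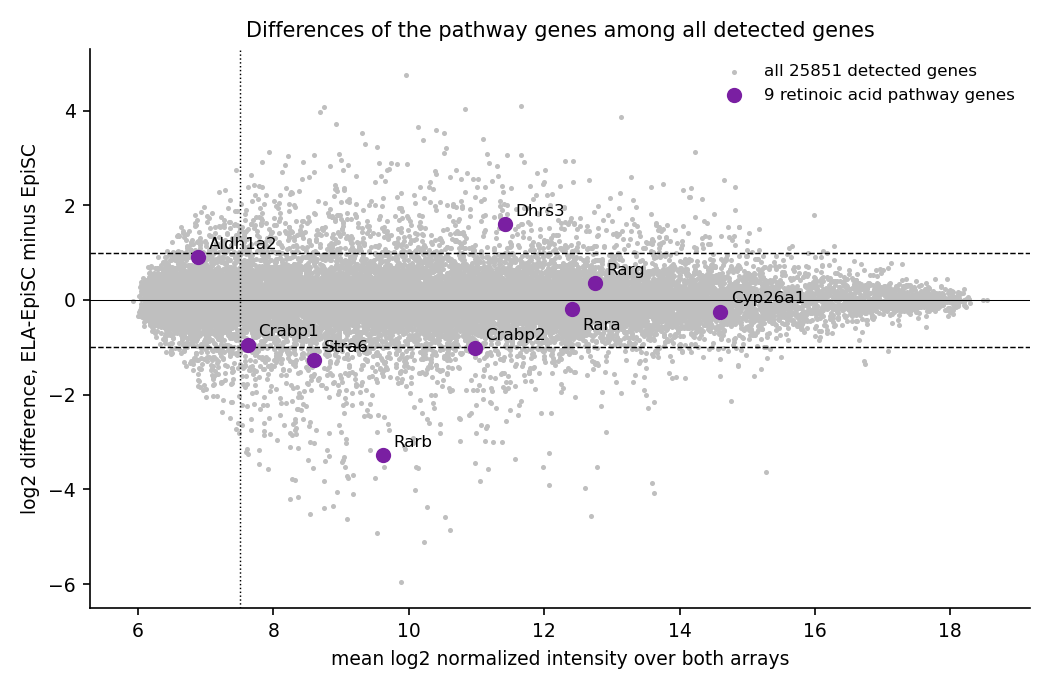
Log2 difference between ELA-EpiSC and EpiSC (vertical axis) against mean log2 normalized intensity over both arrays (horizontal axis) for 25851 detected genes (small points) and the 9 retinoic acid genes (large points), with dashed lines at 1 and -1 and a dotted line at the minimum level of 7.5. Rarb lies at -3.28 and Dhrs3 at 1.61, Aldh1a2 lies left of the dotted line, and Cyp26a1, Rara and Rarg lie within the main band.

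Receptors act with partners: retinoid X receptors bind DNA beside them, coactivators such as NCOA1 and EP300 join when the acid is present, and corepressors when it is absent. Of 19 listed genes of this kind, all were detected and 18 had a mean level of at least 7.5. With quantile normalization 0 were past 1 in either direction, against 4.54% toward ELA-EpiSC and 4.46% toward EpiSC over all such genes. Small positive differences prevailed, with 17 of 19 higher in ELA-EpiSC and a median of 0.40. That median stayed above 0 under each of 12 scalings, the reported one included, from 0.36 to 0.94. The 0.94 came with the spike-in probes set equal, under which the median over all genes was 0.54. Toward ELA-EpiSC, 1 listed gene was past 1 with median scaling and 8 with the spike-in probes set equal. Under the latter, 2621 of all 17648 genes with that level were past 1 in that direction. With quantile normalization, single differences ran from -0.47 to 0.79. The exceptions were Rxra (7.35 and 6.88) and Hdac3, the deacetylase of the corepressor complex (10.72 and 10.67), named after their values were seen.

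Other genes known to respond to retinoic acid were split, with 10 higher and 8 lower in ELA-EpiSC. Of 22 listed, 18 were detected and 8 had a mean level of at least 7.5, with a median of 0.07 that became -0.19 with 75th-percentile scaling after normexp and 0.61, with 14 higher and 4 lower, with the spike-in probes set equal. Those past 1 were 3 with the higher level in ELA-EpiSC (Rai14 and Zfp703 among them) and 1 with the higher level in EpiSC (Rarres1). Over all genes with that level the shares were 4.54% and 4.46%.

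Rai14, a cytoskeletal gene first found by its induction with retinoic acid, went from 12.53 to 13.81, a difference of 1.29. Zfp703, a transcriptional repressor, went from 12.77 to 13.96, a difference of 1.20. Both were higher in ELA-EpiSC while Rarb, a target of the same acid, was lower. Rarres1, a retinoid-induced gene of epithelia, was detected on the EpiSC array only, at 9.70 against 6.14 in ELA-EpiSC, or 11.8-fold higher in EpiSC. Its difference ran from -7.02 to -3.02 over 12 scalings, the reported one included. The fold, which is also its bound, sets its EpiSC level against its own level on the ELA-EpiSC array. That level lay above the dimmest signal detected there. Part of the list gave little signal: Hoxa3, Hoxb1 and Hoxd4 were near background on both arrays, as was the case for Stra8, the germ cell gene named for its induction by the acid.

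**Figure D3:**
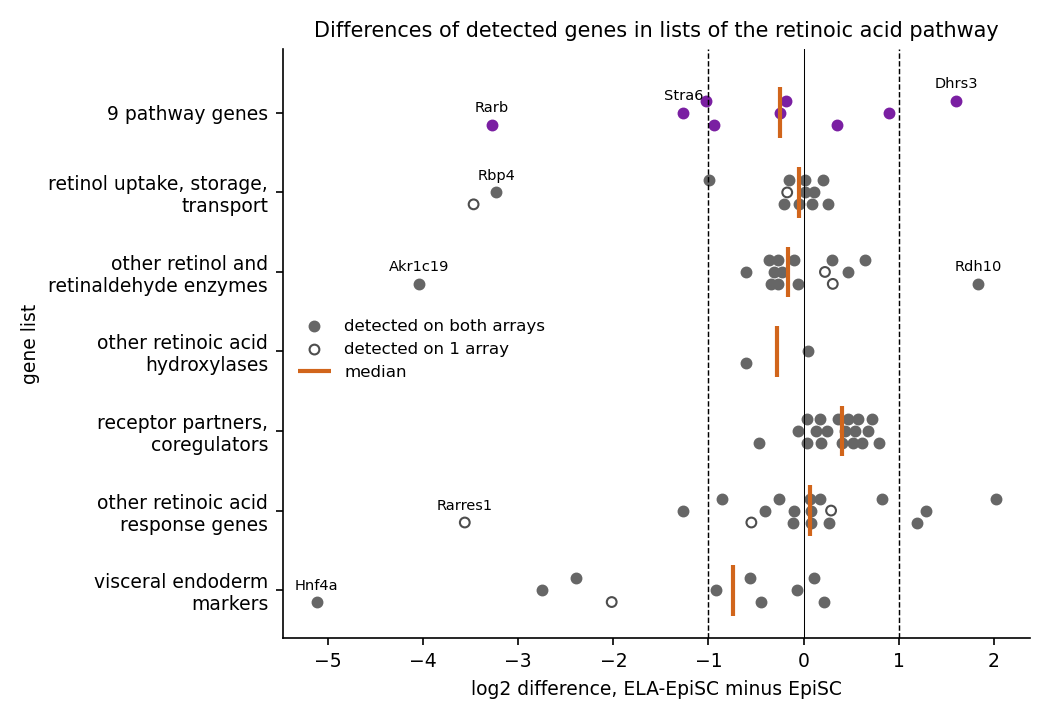
Log2 difference between ELA-EpiSC and EpiSC (horizontal axis) of each detected gene in 7 lists (rows), with filled points for genes detected on both arrays, open points for genes detected on 1, a vertical bar for the median of the list, and dashed lines at 1 and -1. The receptor partners and coregulators cluster above 0 with a median of 0.40, and the visceral endoderm markers spread below 0 with a median of -0.75.

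The identity of the cultures was read from marker lists. The 8 epiblast markers were all detected, Pou5f1 and Otx2 among them, and 1 was past 1 (Pou3f1, higher in ELA-EpiSC). Of 8 markers of the ground state, 7 were detected, all with a mean level of at least 7.5, and Prdm14 was not above background on either array. Those past 1 were 3, all higher in EpiSC (Nr0b1, Tfcp2l1 and Tbx3). In all 5 were lower in ELA-EpiSC and 2 higher (Esrrb, 9.57 and 10.01, and Klf4, 9.46 and 9.62), with a median of -0.33. With the spike-in probes set equal 3 were lower and 4 higher, and the median was 0.21. Of 8 mesoderm markers 6 had a mean level of at least 7.5, and 1 of these was past 1 in each direction. Of 8 neural markers 4 had that level, and 1 was past 1 (Nes, higher in ELA-EpiSC). The defining neural gene Pax6 was not above background on either array. Over all genes with that level, 4.54% were past 1 with the higher level in ELA-EpiSC and 4.46% with the higher level in EpiSC. As log2 of the summed signal, epiblast markers summed to 18.07 in EpiSC against 17.84 in ELA-EpiSC, ground-state markers at 12.81 and 11.71, mesoderm markers at 13.07 and 12.77, and neural markers at 12.67 and 14.49. The epiblast sum follows its brightest marker Dnmt3b (17.07 and 16.24), since 5 of the 8 epiblast markers were higher in ELA-EpiSC and their median was 0.08. The neural sum follows Nes (12.26 and 14.37), since 4 of the 7 detected neural markers were lower in ELA-EpiSC and their median was -0.02. The part of these differences in those of the retinoic acid genes was not tested.

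How far the values depend on the computation was read gene by gene. Dhrs3 and Rarb were past 1 in size under each of 12 other ways of computing a level, Stra6 under all but the spike-in scaling, and Cyp26a1, Rara and Rarg under 0. The widest ranges were those of Rarb, through its near-silent distant probe, and of the dim genes Aldh1a2 and Crabp1.

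**Figure D4:**
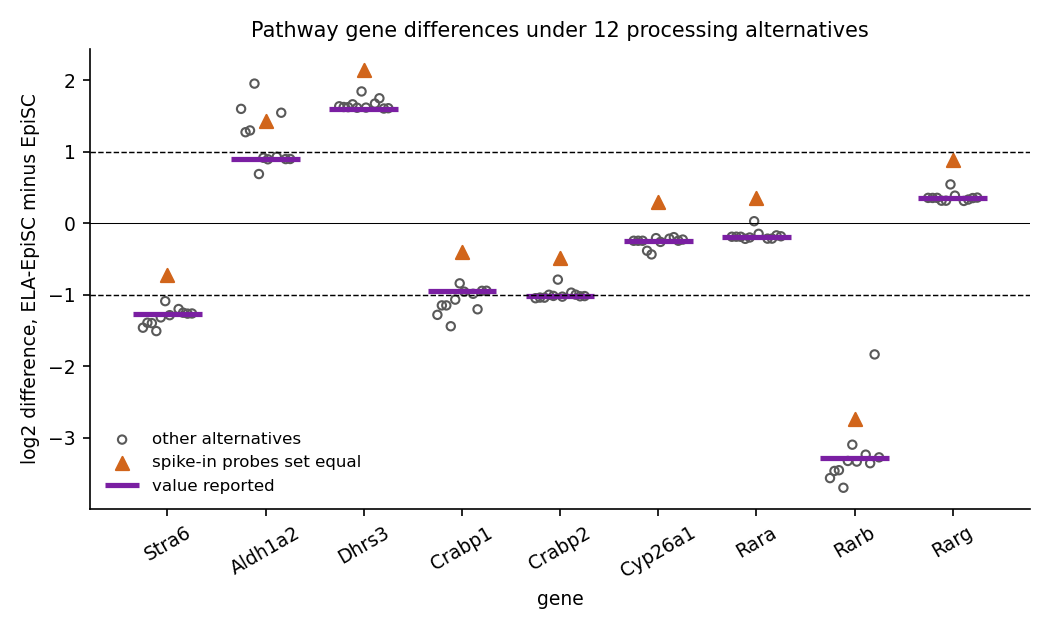
Log2 difference between ELA-EpiSC and EpiSC (vertical axis) of each of the 9 genes (horizontal axis) as reported (horizontal bar) and under 12 alternatives, with triangles for the spike-in probes set equal and circles for the others, and dashed lines at 1 and -1. Stra6 lies inside the lines only at the triangle (-0.73), Crabp2 straddles the lower line, and the lone circle of Rarb at -1.83 is the mean of its 3 probes.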

How the data were processed

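RNA of 1 EpiSC and 1 ELA-EpiSC array (Agilent SurePrint G3, 62976 spots, mm9 coordinates) was analysed, with groups taken from the titles. Spot intensity, linear and not normalized, comes from the scanner files that the authors deposited, made with Feature Extraction, version 10.7.3.1 per the file headers and 9.1 per the labels. The authors also deposited log2 values per probe, background-corrected and quantile normalized with limma (offset not given in the sources used here), which served as an alternative.

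Here mean signals were corrected by normexp (offset 50) on the median local background over all spots in limma 3.58.1 under R 4.3.3. Control spots and flagged spots (158 in EpiSC and 117 in ELA-EpiSC) were left out, arrays were quantile normalized, log2 was taken and repeat spots were averaged. With this offset the differences of dim genes come out smaller, and a shift shared by all genes is lost in quantile normalization. Detection required that a share of 0.5 or more of a probe's spots lay well above background. A gene took its brightest detected probe, and tables were joined in Python 3.11.15 with pandas 2.3.3. The script was tested on simulated data.

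With 1 array per group no test was made, and the number of arrays limits the precision. Since probes differ in how well they bind, a level is not compared between genes as an amount of RNA. Named genes were every probe of the 9 genes, and, of 5 further pathway lists, those past 1 at a mean of 7.5 or with a bound of at least 2-fold, or else the brightest. Some genes that this rule names are not reported here. The closing observations name the 3 genes nearest in normalized intensity, a likeness of signals only, to each of the 2 genes with the largest difference. The members, lists and thresholds were chosen with earlier results of these data known. There were 17 alternatives: 12 recompute levels and changed values of these genes, 2 alter the detection filter and left them as they were, and 3 alter only the threshold or the minimum level. Promoter sequences are those of RefSeq on GRCm38.p6, and no coordinates were converted between assemblies.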

Additional observations from a re-analysis of the deposited data

How the results depend on the processing

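Of 108 differences of the 9 genes recomputed under 12 alternatives, 68 moved by less than the SD over spots, 37 by more, and 3 changed sign. Those 3 were Rara with median scaling (0.029) and, with the spike-in probes set equal, Rara (0.35) and Cyp26a1 (0.29). With the spike-in probes set equal the median of the 9 genes was 0.29, 1 gene was past 1 with the higher level in EpiSC, and all genes past 1 numbered 2621 with the higher level in ELA-EpiSC and 321 with the higher level in EpiSC. The median of the 9 genes was -0.38 with the processed signal scaled to its 75th percentile and -0.44 with 75th-percentile scaling after normexp. Crabp2 was not past 1 with median scaling, the spike-in probes set equal, the median pixel signal and the deposited log2 values, and Crabp1 was past 1 at a mean level of at least 7.5 with the deposited values and with 75th-percentile scaling after normexp. At a threshold of 1.5-fold all genes past it numbered 1846 and 1823. At a threshold of 2.5, 0 and 1 of the 9 genes (Rarb) were past it, with 67 and 108 of all genes. A minimum mean level of 9 left 527 genes past 1 toward ELA-EpiSC and 481 toward EpiSC, and Stra6 fell below that minimum. The cause was not tested where the scaling moved a value. Signal near background limits Aldh1a2 and the distant Rarb probe. No paired analysis was possible because only 1 array stood on either side.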

Other observations

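Igf2os, Sapcd1 and Tbx3 had the pairs of log2 levels nearest to that of Rarb, at Euclidean distances of 0.17, 0.30 and 0.38 over the 2 arrays. Igf2os, the antisense transcript of the imprinted growth factor gene Igf2, went from 11.40 in EpiSC to 7.87 in ELA-EpiSC, and Sapcd1 reached 7.84 in ELA-EpiSC with a difference of -3.16. Tbx3, a T-box factor of naive pluripotent cells and of endoderm, went from 11.37 to 7.62. Pim3, a kinase gene downstream of LIF signalling, was nearest to Dhrs3 at a distance of 0.09, with 10.71 in EpiSC and 12.20 in ELA-EpiSC. Sertad4 (10.50 and 12.22) and Lor, a structural protein of cornified epithelium (10.57 and 12.09), followed at 0.12 and 0.15. Likeness over 2 arrays ranks pairs of levels and carries no information on shared control.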
